A study of Homo sapiens with 6 samples.

Results

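The regions described here are stretches of the human genome where a peak of crosslinked RNA was called in exactly 1 list of the HSP70 chaperone HSPA8 and in no other list. Peaks of 4 deposited lists were pooled, namely HSPA1A replicates 1 and 2 and HSPA8 replicates 1 and 2. Peaks overlapping by at least 1 bp on the same strand were merged on the 25 chromosomes (autosomes, X, Y and the mitochondrial genome). Merging gave 4136 regions. Of these, 1144 (27.7%) held peaks of HSPA8 replicate 1 alone and 38 (0.919%) held peaks of HSPA8 replicate 2 alone, 1182 in all. Members were chosen by the presence or absence of a peak in each list, so those counts and the peak scores are descriptions, and no test was made of them.

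The cells were HEK293 Flp-In T-Rex, a standard line of human embryonic kidney origin built to take up a transgene under tetracycline control. The series holds 6 libraries, 2 biological replicates of each of 3 baits: GFP, HSPA1A and HSPA8. Every bait carried a 3xFLAG-HBH tag and was induced with 1 µg/ml tetracycline, so the lists report RNA on an added, tagged protein in cells that keep their own HSP70. FLASH crosslinks RNA to protein with ultraviolet light, purifies the bait on nickel and then streptavidin beads, and sequences the RNA that stays attached. Data for the GFP bait were not analysed here, and the values below therefore lack a control-bait background. The lists hold called peaks and no read totals. Depth is therefore unknown, and the absence of a peak is not the absence of bound RNA. Whether the cells carry kidney markers cannot be read from such lists and was not tested.

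HSPA8 is the constitutive cytosolic HSP70, and HSPA1A its stress-inducible relative. Both bind and release short hydrophobic stretches of client proteins in cycles of ATP hydrolysis, helped by J-domain proteins and nucleotide exchange factors. The title of the series concerns RNA binding by HSP70 and transcription by RNA polymerase III, the enzyme that makes 5S ribosomal RNA, transfer RNA and other small RNAs. Small nucleolar RNAs (snoRNAs), another class that recurs below, guide chemical changes of ribosomal RNA. The box C/D kind guides methylation and the box H/ACA kind guides pseudouridylation, and most are cut from introns of host genes.

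Sequence was at hand for members near annotated gene starts and on a microRNA hairpin. The first set shows where replicate 1 members began at or near the start of a transcript, in gene orientation, 5′ to 3′, with capitals for bases from the annotated start onwards. Letters are RefSeq's, build GRCh38.p14, and pieces of messenger RNA were kept to 30 bases or fewer.
XIST: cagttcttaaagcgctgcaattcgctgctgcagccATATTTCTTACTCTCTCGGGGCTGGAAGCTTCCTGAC
HSPA1B: aAAACGGCCAGCCTGAGGAGCTGCTGCGAG
SMARCA4: GAGGCCACTGTCTGCAGCTCCCGTGAAGAT
UBQLN1: GAGGAGGAAGCGGTGGCTGCTGCGGATGTC
HNRNPK: CGACCGGCTGAGGCGGCGCGGCAGCGGAGG
MIF: CACGTAGCTCAGCGGCGGCCGCGGCGCGT
ALDOA: tccaaggaagaatttcctctGAAGCACCG
The XIST region, chrX:73852678-73852749 on the minus strand, spanned the start of this long non-coding RNA, which silences an X chromosome in female cells. It was shown whole and scored 5. The HSPA1B region lay at chr6:31827737-31827804, plus strand, with score 5, and held the start of the messenger RNA of an inducible HSP70 protein. The ALDOA region, chr16:30064477-30064505 on the plus strand, reached from 20 bases before the start of this aldolase gene to 8 bases past it. Only letters within the window of 250 bases before to 50 after a start were at hand.

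The second set shows replicate 1 members that lay on repeated sequence, in lower case throughout because no base is set apart. NBPF10 and NBPF14 belong to a recently duplicated gene family on chromosome 1. The third line holds the last 30 bases of a region in the spacer between 5S ribosomal RNA genes.
NBPF10: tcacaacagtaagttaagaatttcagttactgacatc
NBPF14: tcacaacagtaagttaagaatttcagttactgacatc
5S spacer: tctctctccctccctcggtttctatctctc
The NBPF10 region (chr1:146144878-146144914, minus) and the NBPF14 region (chr1:148595826-148595862, minus) were identical at 37 of 37 bases, and each scored 5. The 5S spacer letters are chr1:228644644-228644673 on the minus strand, the strand opposite to the neighbouring gene RHOU. Their place in the array is described with the repeats below.

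For replicate 2, a member lay on the microRNA hairpin MIR9901, at chr16:34163597-34163621 on the plus strand, with score 5. Members were not counted over all 1562 hairpins in the RefSeq table. Capitals mark the region in the hairpin and the seed (bases 2 to 8) in the mature form.
MIR9901 hairpin: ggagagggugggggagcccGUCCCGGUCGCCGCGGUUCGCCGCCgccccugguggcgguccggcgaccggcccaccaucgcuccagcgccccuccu
hsa-miR-9901: cGGUCGCCgcgguucgccgcc
The region covered the mature form whole and 4 bases before it.

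The 2 HSPA8 lists differed widely in how much of each stood alone. In replicate 1, 45.98% of its 2488 merged regions were in no other list (95% Wilson interval 44.0 to 47.9). In replicate 2 the share was 3.99% of 952 regions (2.92 to 5.43). The HSPA1A lists lay between, at 37.7% of 2404 for replicate 1 and 26.1% of 1591 for replicate 2. Only 2 regions held peaks of both HSPA8 lists and of no HSPA1A list, while 648 regions held peaks of all 4. Replicate 1 also had more peaks on these chromosomes, 2778 against 1423. The part of list length and depth in this gap was not tested. Keeping the 1423 highest-scoring peaks of each list, which changes both length and score, left 217 members in replicate 1 and 98 in replicate 2. All intervals here cover counting error over regions alone, and neighbouring regions of a transcript are not independent.

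Every member consisted of 1 peak. Members of replicate 1 were 16 to 162 bp wide with a median of 53 bp, near the 54.5 bp of the regions that list shared with others, and covered 65.075 kb. Members of replicate 2 were 20 to 81 bp wide with a median of 42 bp, against 56 bp for its shared regions, and covered 1.558 kb.

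The authors' whole-number score, whose meaning is not given in the sources used here, was low in both sets. Replicate 1 members scored 0 to 40 with a median of 5, against a median of 18 and a maximum of 5733 in its shared regions. Replicate 2 members scored 1 to 19 with a median of 5, against 16 and 3014. A score of 5 or 6 was held by 838 of 1144 replicate 1 members (73.3%, against 13.8% of shared regions). In replicate 2 it was held by 25 of 38 (65.8%, against 14.7%). Ranked within replicate 1, 88.2% of the 710 regions at score 5 were in that list alone, 59.6% of 691 at 6 to 9, 14.6% of 405 at 10 to 19, and 1.83% of 219 at 20 to 49. None of its 417 regions at 50 or more was. In replicate 2 the shares were 22.4% of 85 regions at score 5 and 4.82% of 228 at 6 to 9, and none of 149 regions at 20 to 49 or of 259 at 50 or more was alone. The scores belong to each list and were not compared across lists.

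**Figure D1:**
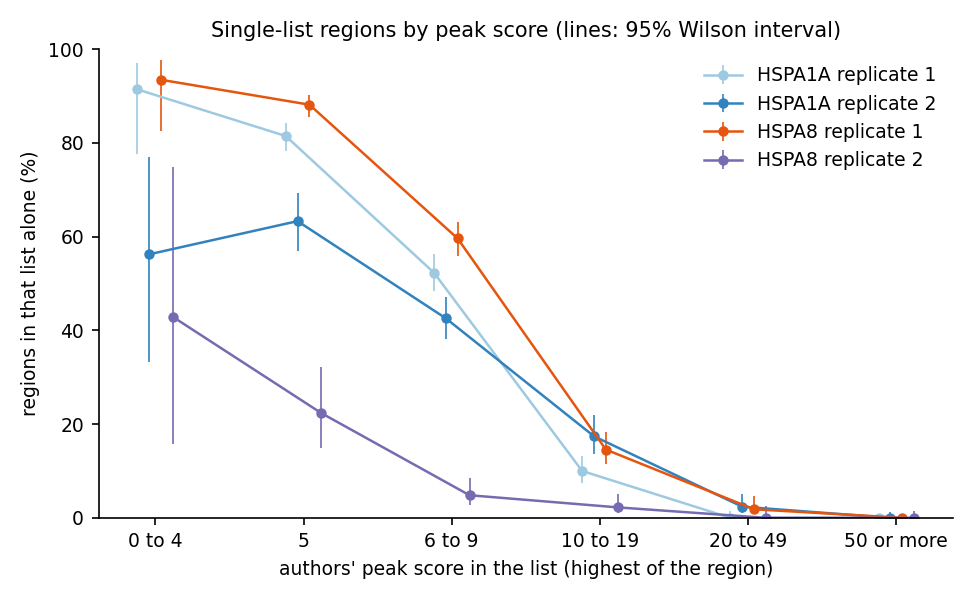
Share of each list's merged regions found in that list alone (y axis, %) by the authors' peak score in that list (x axis, 6 score ranges), with points for shares and lines for 95% Wilson intervals. In HSPA8 replicate 1 the share was 88.2% at score 5 and 0 of 417 at 50 or more, and in HSPA8 replicate 2 it was 22.4% at score 5.

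Most replicate 1 members lay far from other lists' peaks. There the median distance to the nearest same-strand peak of another list was 391361 bp, 884 members (77.3%) had none within 10 kb, and 94 (8.22%) had 1 within 100 bp. In replicate 2 the median was 16159.5 bp, and 11 of 38 had a peak within 500 bp. Just inside the overlap rule, a replicate 1 member on the pseudogene LOC110467535 touched an HSPA1A replicate 2 peak with 0 bp between them. A member on SNORD50A in replicate 2 lay 2 bp from a peak of HSPA1A replicate 1. Just outside it, HSPA8 replicate 1 and HSPA1A replicate 1 shared 2 bp on the mitochondrial genome near TRNC, 11 bp in RTEL1-TNFRSF6B and 11 bp in XIST. On SCARNA13 both HSPA8 lists shared 15 bp.

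The 2 sets differed in gene class. Each region was assigned to 1 RefSeq gene it overlapped, whatever the strand, and took that gene's class. Where a region overlapped genes of several classes, protein-coding genes came last, after other non-coding genes. In replicate 1, 660 of 1144 members (57.7%, Wilson 54.8 to 60.5) lay on protein-coding genes, against 11.2% of the regions that list shared. Another 242 (21.2%) lay on other non-coding genes, mainly long non-coding RNAs and pseudogenes, and 165 (14.4%) on no gene. The remaining members were 31 on RNA polymerase III genes (2.71%, against 14.8% of shared regions), 30 on mitochondrial genes, 11 on ribosomal RNA genes, 4 on snoRNAs and 1 on a small nuclear RNA. In replicate 2, 25 of 38 members (65.8%, Wilson 49.9 to 78.8) lay on snoRNA genes, against 3.83% of its shared regions. Its other members were 6 on protein-coding genes, 5 on other non-coding genes, 1 on a ribosomal RNA gene and 1 on no gene. No replicate 2 member lay on an RNA polymerase III gene. The replicate 1 shares changed when the lists were cut to equal numbers of top-scoring peaks. That cut altered list length and score together, so the part of length alone was not tested. With equal numbers of top-scoring peaks, protein-coding genes held 17.1% of 217 replicate 1 members and 16.3% of 98 replicate 2 members. RNA polymerase III genes then held 14.7% of the replicate 1 members and 0% of the replicate 2 members.

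**Figure D2:**
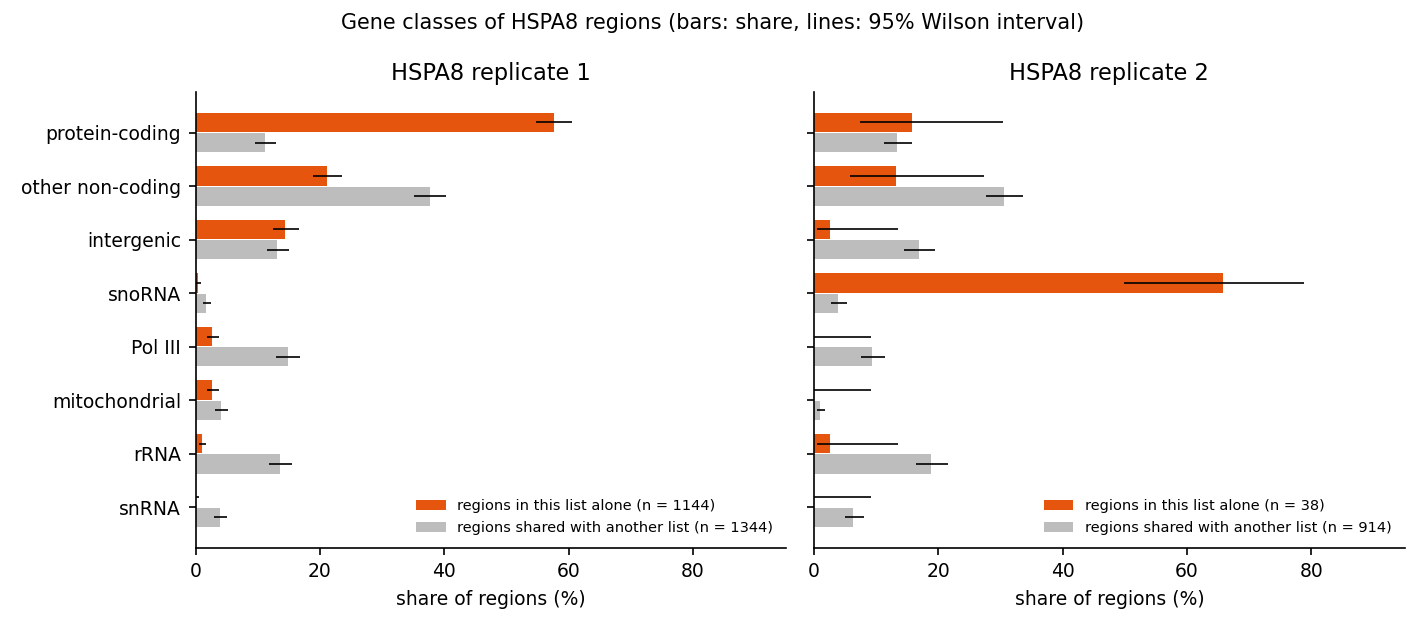
Share of regions (x axis, %) in 8 gene classes for HSPA8 replicate 1 (left) and replicate 2 (right), with orange bars for regions in that list alone, grey bars for regions shared with another list and black lines for 95% Wilson intervals. Protein-coding genes took 57.7% of the 1144 replicate 1 members, and snoRNA genes took 65.8% of the 38 replicate 2 members.

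Set against the HSPA1A lists, the values of the baits overlapped for both classes of the comparison. Protein-coding genes held 57.7% and 15.8% of members in HSPA8 replicates 1 and 2, and 43.0% and 36.5% of the regions found in HSPA1A replicate 1 or 2 alone. The means were 36.7 ± 29.6% and 39.8 ± 4.60% (SD, n = 2 lists each), a difference of -3.05 points (exact two-sided permutation test, p = 1). The spread between the HSPA8 replicates was far larger than the difference between the baits. RNA polymerase III genes held 2.71% and 0% for HSPA8 and 3.86% and 1.92% for HSPA1A. The means were 1.35 ± 1.92% and 2.89 ± 1.37%, a difference of -1.54 points (exact two-sided permutation test, n = 2, p = 0.667). With 2 lists a bait, the smallest p that test can give is 2 of 6 orders, so it cannot pass 0.05, and all 3 comparisons had a Benjamini-Hochberg p of 1. Leaving out HSPA8 replicate 2 turned the protein-coding difference to 19.05 points, and equal numbers of peaks turned the Pol III difference to 0.648.

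On protein-coding genes, the replicate 1 members followed the strand of the gene. The strand of the gene had no part in choosing the members, and it was known for 539 of the 660 members. Of these, 493 (91.5%, Wilson 88.8 to 93.5) lay on the strand that the gene is read from. Among protein-coding regions that the same list shared with others, 62 of 112 (55.4%) did. In replicate 2, 2 of the 6 members did, and 50 of 95 of its shared regions (52.6%). In the HSPA1A lists, the own-strand share of regions found in 1 list alone was 80.4% of 331 for replicate 1 and 44.3% of 122 for replicate 2. Both replicate 1 lists thus had higher shares than both replicate 2 lists, whichever the bait. The HSPA8 replicate 2 share rests on only 6 regions (Wilson 9.68 to 70.0), and the HSPA1A replicate 2 interval was 35.8 to 53.1. Each list has equal weight in the means that follow, whatever its number of regions. The means over lists were 62.4 ± 41.1% for HSPA8 and 62.3 ± 25.5% for HSPA1A, 0.0871 points apart (exact two-sided permutation test, n = 2, p = 1). On other non-coding genes of known strand, 64 of 87 replicate 1 members (73.6%) lay on the gene's own strand, against 54 of 67 shared regions (80.6%). Without XIST the counts were 39 of 62 and 20 of 33. These shares depend on the assignment, since other non-coding genes went before protein-coding genes whatever the strand. A region opposite to an antisense gene counted as opposite even where it also overlapped a protein-coding gene.

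**Figure D3:**
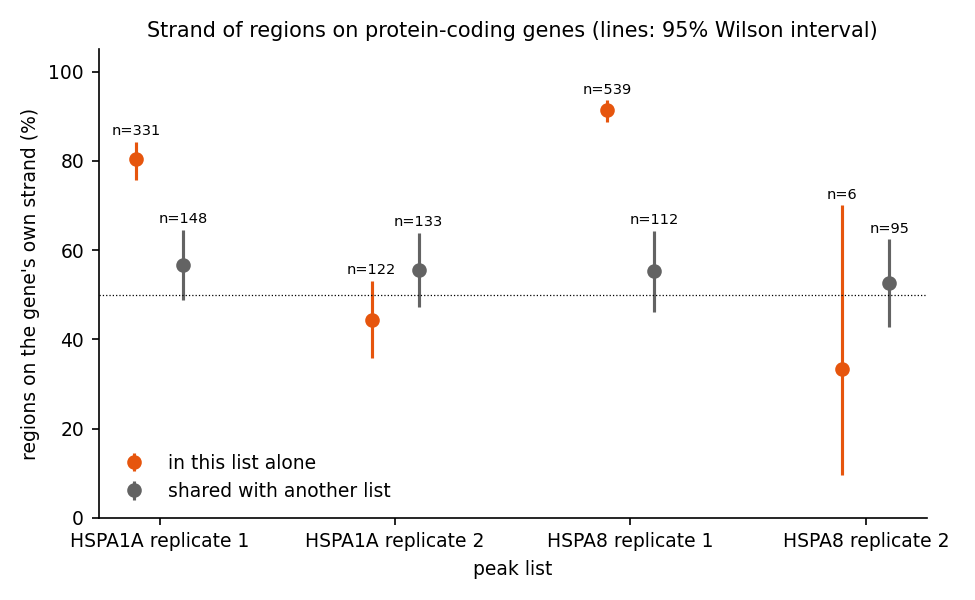
Share of regions on protein-coding genes that lay on the gene's own strand (y axis, %) in each of the 4 lists (x axis), in orange for regions of that list alone and in grey for shared regions, with 95% Wilson intervals and the number of regions. HSPA8 replicate 1 alone stood at 91.5% of 539, and its shared regions at 55.4% of 112.

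These members were spread thinly over many messenger RNA genes. Replicate 1 touched 811 genes, 1.36% of the genes in the table, 719 of them by 1 region and 92 by 2 or more. No other list had a peak on 688 of the 811 (84.8%). For genes with a region of another list alone, that share was 79.8% (HSPA1A replicate 1), 82.8% (HSPA1A replicate 2) and 86.5% (HSPA8 replicate 2). Of 20037 protein-coding genes, 574 (2.86%) held a replicate 1 member, and 506 of these (88.2%) had no peak in another list. The corresponding protein-coding shares were 82.4%, 79.2% and 83.3%, in the order above. The 493 own-strand members lay on 426 genes with a median length of 65.2 kb, against 134 kb for the shared own-strand regions. By midpoint, 24 members (4.87%) lay in the first kb of those genes and 40 (8.11%) in the last kb. Of the shared regions, 1.61% and 0% did. Scaled by gene length, the last 10% of the gene held 10.95% of members and 11.3% of shared regions, and the median position was 50.2% and 51.3% along the gene. Exons and introns were not told apart here. Replicate 2 touched 37 genes (0.062% of the table), 32 of them without a peak in another list, and 6 protein-coding genes (0.0299%). Those 6 were SAMD11, RPS6KC1, C10orf53, CHD3, TOX2 and SHISA5. CHD3, a nucleosome remodeller, scored 1, RPS6KC1 scored 6, and each of the other 4 scored 5. SAMD11 and TOX2 held the 2 own-strand members.

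Genes for the translation machinery held low-scoring members in replicate 1, where 574 of 20037 protein-coding genes (2.86%) held a member. Regions found in HSPA1A replicate 1, HSPA1A replicate 2 or HSPA8 replicate 2 alone lay on 353, 149 and 6 of those genes. These base counts differ between lists and bear on each comparison of gene lists here and below. Of 88 ribosomal protein genes, 17 (19.3%) held a replicate 1 member. The count was 5 (5.68%) for HSPA1A replicate 1 alone, and none for HSPA1A replicate 2 or HSPA8 replicate 2. All 17 were low in score, from 5 to 8. RPL29 and RPS4X, proteins of the large and small subunit, reached 8. RPS4X also held a second region directly beside the first, at score 5. RPL4, RPL36, RPS16 and RPS19 likewise held 2 members each. RPS2, RPL37 and RPS4X had peaks in HSPA1A replicate 1 as well, and no peak of another list was assigned to the other 14. Of 33 translation factor genes, 6 (18.2%) held a member, and no peak of another list was assigned to any of the 33. EEF1A1, the elongation factor that brings aminoacyl-tRNA to the ribosome, held 2 at scores 10 and 7 (chr6:73517675-73517805 and chr6:73517846-73517921, minus). EEF2, the translocation factor, scored 5, as did EIF1 and EIF5A, while EIF2S1 and EIF3A scored 6.

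Housekeeping messages were also among the members. Of 30 cytoskeleton and housekeeping genes, 8 (26.7%) held a replicate 1 member, against 1 in each HSPA1A list. ACTB, cytoplasmic actin, scored 9 over 156 bp at chr7:5527164-5527319, and its paralogue ACTG1 scored 4. GAPDH, the glycolytic enzyme, held 3 members, each at score 5, and ALDOA held 2. TUBB, HNRNPK, PKM and TPT1 scored 5 to 7. Copies and pseudogenes of these genes are common in the genome, and how reads matching several places were treated is not given in the sources used here. The levels of these messages in the cells were not measured in this series, so their part in the counts was not tested.

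Of 41 HSP70, HSP90 and co-chaperone genes, 3 (7.32%, against 2.86% of all protein-coding genes) held a replicate 1 member, and 4 held a region found in HSPA1A replicate 1 alone. They were HSPA1A (score 5), HSPA1B (5 and 6) and HSP90AA1, the inducible cytosolic HSP90 (6). HSPA1A and HSPA1B code for near-identical proteins, so reads could be split between them, and both genes also had HSPA1A replicate 1 peaks. HSP90AA1 had a peak in HSPA8 replicate 1 alone. Of 32 genes for the RNA polymerase III machinery, only POLR1D, a subunit shared with RNA polymerase I, held a member (3.13%), at score 5. Of 17 nuclear long non-coding RNAs, NEAT1, the scaffold of paraspeckles, was assigned 1 at score 6. MALAT1, an abundant RNA of nuclear speckles, overlapped 3 members on its own strand, at scores of 5 to 8, that had been assigned to its antisense gene TALAM1. HSPA1A replicate 1 alone held 7 regions on the MALAT1 strand, and neither replicate 2 list alone held any. Of 69 replication-dependent histone genes, H2AC18 and H2AC19 (2.90%) held 1 each. These neighbouring copies had the same width, 148 bp, and the same score, 7. No gene of any of these 7 lists was assigned a replicate 2 member, and those that overlapped 1 did so only through a snoRNA within them, such as EIF4A2, NCL, RACK1 and RPL10. Counted by any overlap on the gene's own strand, where the strand was known, the genes with a replicate 1 member numbered 19 of 88 ribosomal protein genes (10 for HSPA1A replicate 1 alone) and 3 of the 17 non-coding RNAs. That count gave 3 translation factor genes and 3 chaperone genes for HSPA1A replicate 1 alone.

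The 10 highest-scoring replicate 1 members on a gene included nuclear and mitochondrial genes. The top member lay on RNVU1-28, a variant gene of the U1 spliceosomal RNA, at chr1:144560796-144560829 (minus) with score 40, 10 bp from an HSPA1A replicate 1 peak. The mitochondrial genes ND3, ND2 and ND1, subunits of respiratory complex I, followed with scores of 26 and 21 for ND3 and 16 for each of the others. MTRNR2L1, a nuclear gene copied from mitochondrial ribosomal RNA, scored 16. The pseudogenes LOC110262331 and LOC110467535 scored 20 and 18. SORCS2, a sorting receptor gene, was the highest protein-coding entry at 19, on a 22 bp region 14 bp from an HSPA1A replicate 1 peak. RNY5, the gene of a Y RNA made by RNA polymerase III, scored 17 over 83 bp and had no peak in any other list. Of the top 10, 8 had a peak of another list within 149 bp on the same strand, the exceptions being RNY5 and the ND3 region at MT 10128 to 10249. Among members on no gene, the highest scored 15, at chr11:10510173-10510208 (minus). The next 4 were all 58 bp wide and scored 12 or 13.

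XIST held more members than any other gene. It lies at chrX:73820656-73852714 and is read from the minus strand, and all 25 of its replicate 1 members were on that strand. They scored 5 to 11 with a median of 7, against a median of 10 for the regions it shared, and covered 2159 bp. Altogether XIST carried 84 merged regions. HSPA8 replicate 1 alone held 25, HSPA1A replicate 1 alone also held 25, both of these lists held 33 together, and HSPA1A replicate 2 held 1. HSPA8 replicate 2 had none. The replicate 1 members fell in the first 12 kb (15) and the last 12 kb (10) of the 32.059 kb gene. Of the 25, 14 had a peak of another list within 100 bp and 24 within 500 bp. The member spanning the annotated start, printed above, was the most 5′ of them.

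**Figure D4:**
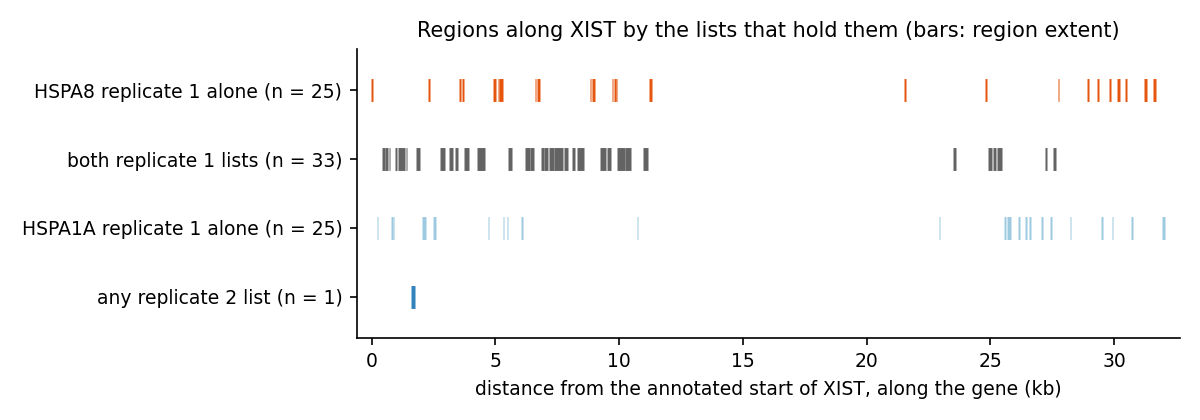
Extent of each of the 84 XIST regions along the gene (x axis, kb from the annotated start in the direction of transcription), in 4 rows by the lists that hold it. The 25 regions of HSPA8 replicate 1 alone lay in the first 12 kb (15) and the last 12 kb (10), and 1 region held a replicate 2 peak.

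Some of the other genes with several replicate 1 members were short stretches of mitochondrial or ribosomal sequence, or held dense clusters. In others the members were widely spread. ND5 held 8, scoring 5 to 9, with 3 on the plus and 5 on the minus strand, and CYTB held 4, up to 14. RNA18SP2, an 18S ribosomal RNA pseudogene on the Y chromosome, held 6 at scores of 5 to 8. The pseudogenes LOC110467536, LOC110467534 and LOC110262331 held 5, 5 and 4. LOC128462377, listed as protein-coding, held 8 at scores of 2 to 4 within 0.379 kb, and SDK1, a cell adhesion gene, held 6 at scores of 0 to 6 within 0.288 kb. Neither of these genes had a peak in another list. They supplied 12 of the 43 replicate 1 members that scored under 5, with 8 and 4. WWOX, an oxidoreductase gene of 1113014 bp, held 4 that were spread over 668.98 kb.

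The mitochondrial members ran on both strands. Of 30 in replicate 1, 18 lay on the plus strand and 12 (40%) on the minus strand, against 17.9% of the mitochondrial regions that list shared. HSPA1A replicate 1 alone had 12, of which 10 were on the minus strand, and both replicate 2 lists had none. Across the replicate 1 members, 19 overlapped a peak of another list on the opposite strand, and 15 of those 19 were mitochondrial.

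Transfer RNA genes made up 27 of the 31 replicate 1 members on RNA polymerase III genes. The other 4 were RNY5, SNAR-A12, SNAR-A13 and SNAR-E. The tRNA members fell in 9 anticodon groups, and 13 of the 27 were valine tRNAs, 8 of TRV-CAC and 5 of TRV-AAC. TRY-GTA followed with 4 and TRR-CCG with 3. None of the 31 genes had a peak in another list. Members were chosen for overlapping no such peak on their strand, so this follows in large part from the rule. Scores ran from 5 to 17 with a median of 7. The TRV-CAC members were 47 or 48 bp wide and scored 7 to 9, and the TRV-AAC members were 48 or 49 bp wide and all scored 5. SNAR-A12 and SNAR-A13 were alike too, at 67 bp and score 10 each. Copies of a tRNA gene share near-identical sequence, so which copy a read came from is uncertain, and the members of a group are not independent.

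Equal widths and scores recurred at other repeated genes. These were looked for after the widths had been seen. Members of 67 bp at score 5 lay in the array of 17 5S ribosomal RNA genes on chromosome 1, the RNA polymerase III genes for the small RNA of the large ribosomal subunit. There were 17, all on the minus strand, between positions 228608872 and 228644710. Successive members began a median of 2241 bp apart (2203 to 2242), and each lay 1311 to 1328 bp before a 5S gene in genome order. Of the 17, 16 were on no gene, and the last was assigned to RHOU. All 18 regions on the 5S genes themselves were on the minus strand too, and the best score per gene in HSPA8 replicate 1 ran from 587 to 1120. On chromosome 16, 11 members were 46 bp wide and all scored 5, between 2571131 and 30247699. Of these, 5 lay on the duplicated NPIP family (NPIPA2, NPIPA3, NPIPB5, NPIPB11 and NPIPB13), 2 on PDPK1 and its pseudogene PDPK2P, and 4 on no gene. The identical NBPF10 and NBPF14 sequences printed above are of the same kind. Whether such a set stands for 1 RNA or for several was not tested.

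Another width stood out by itself. Exactly 75 bp was the width of 195 replicate 1 members (17.0%). In HSPA1A replicate 1 alone it was the width of 66 (7.28%), and of no region found in either replicate 2 list alone. Of the 195, 142 (72.8%) lay on protein-coding genes, against 54.6% of members of other widths, and 117 scored 5. Chromosome 1 held 26 of the 195, and it also held the most replicate 1 members of any width, 138 of 1144 (12.1%). Without the 75 bp members the own-strand share was 91.1%.

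**Figure D5:**
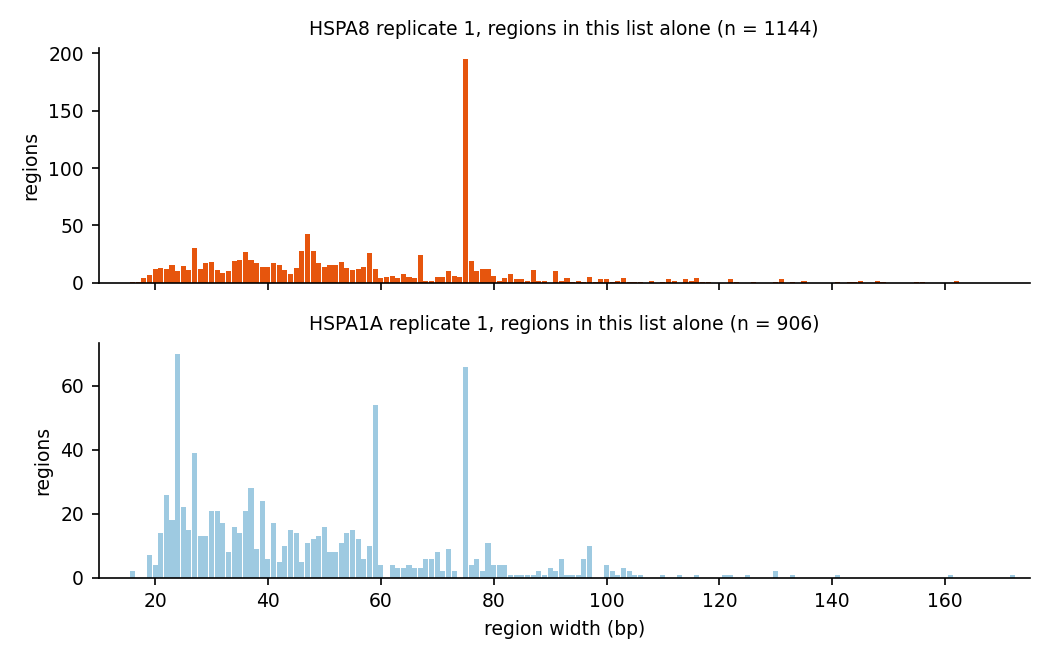
Number of regions (y axis) by width (x axis, bp) for the regions of HSPA8 replicate 1 alone (top, n = 1144) and of HSPA1A replicate 1 alone (bottom, n = 906); the y axes differ. A width of 75 bp was held by 195 and 66 regions.

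Few members lay at gene starts. Of 35116 windows from 250 bp before to 50 bp after a start, 20 replicate 1 members touched 21. In 13 pairs the member was on the gene's strand and in 8 on the other. For protein-coding genes the split was 11 to 4, counting any touch of the window. The 11 include HMGN4, touched by 4 bp of the tRNA member TRV-CAC1-6, and the 4 include RHOU, touched by a 5S spacer member. Over all genes, only 8 of the 13 same-strand pairs reached transcribed bases. The GC content of the touched windows had a median of 61.7%, against 58.7% over all windows. No replicate 2 member touched such a window. SMARCA4, the catalytic subunit of a chromatin remodeller, and UBQLN1, a ubiquitin-binding shuttle factor, scored 6 each, and MIF, a cytokine gene, scored 8 over 145 bp. The HNRNPK member at its start (score 5) also lay before the divergent gene RMI1.

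The 25 snoRNA members of replicate 2 were spread over many host genes. They comprised 19 box C/D and 6 box H/ACA snoRNAs, 2.04% of the 1228 snoRNA genes in the table, against 0.326% for replicate 1. All 25 lay inside a host gene, 17 in protein-coding and 8 in long non-coding hosts, 21 hosts in all. Where the host's strand was known, 20 of 20 were on it. The members were 28 to 81 bp wide with a median of 44 bp and covered 24.9 to 95.8% of the snoRNA gene (median 53.3%). No other list had a peak on 23 of the 25 genes, which follows in large part from how members were chosen. The exceptions were SNORD50A and SNORA81, which scored 5 and 16 in HSPA1A replicate 1 on other stretches of the gene, and 6 and 5 here.

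Scores among these snoRNAs ran from 5 to 19. SNORD44 was highest at 19, at chr1:173865987-173866028 (minus) in GAS5, a growth-arrest host whose introns hold several box C/D snoRNAs. SNORD78, also in GAS5, scored 12, and lay 93 bp from an HSPA1A replicate 1 peak. SNORD36C in RPL7A scored 17 at chr9:133350868-133350912 (plus). SNORD26 in SNHG1 and SNORA70 in RPL10 scored 10. SNORA14B, SNORA64, SNORD52 and SNORD48 were among those that followed at 7. Hosts for ribosomal proteins recurred, among them RPS2 with SNORA64, RPS12 with SNORD101 and RPL13A with SNORD35A. SNORD14E lay in the HSPA8 gene itself, and scored 5 at chr11:123058076-123058116 (minus).

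Replicate 1 had 4 snoRNA members, none of them among those 25 genes. Among them, SNORD81, again in GAS5, scored 11, SNORD36B in RPL7A scored 5, and SNORD3P3 scored 5. Counting any peak, 24 snoRNA genes had 1 in HSPA8 replicate 1 and 58 in replicate 2, against 66 and 22 in HSPA1A replicates 1 and 2. Genes with a peak in 1 list alone numbered 3, 23, 28 and 0 in that order, and 10 genes had peaks in all 4. HSPA8 replicate 2 and HSPA1A replicate 1 thus held most of the snoRNA genes found in 1 list, which crosses both the baits and the replicate numbers. Under equal numbers of peaks the replicate 2 snoRNA members were 43 of 98, and without HSPA1A replicate 1 they were 37 of 66.

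The remaining replicate 2 members were scattered. RNA18SP, an 18S pseudogene, scored 4 and lay 5 bp from an HSPA1A replicate 1 peak. RN7SKP55, a pseudogene of the 7SK RNA, scored 4, and MTND5P11, a nuclear copy of mitochondrial ND5, scored 5. The only member on no gene, chr2:16243639-16243661 (plus), scored 5.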

How the data were processed

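Per the labels' protocols, FLASH adapters carried random tags that were used to merge PCR duplicates and further tags that marked replicates. The submitters' processing notes name Trim Galore 0.4.4, FastQC, STAR 2.6.0b, deepTools and GRCh38. How peaks were called, at what threshold, and what was done with reads matching several places are not given in the sources used here. Each deposited list holds the peaks of 1 replicate with the authors' score, a whole number, which served here only for ranking, describing and filtering inside that list. Depth is unknown.

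Peaks were merged by strand at 1 bp overlap, and scaffolds were left out. Regions were assigned to RefSeq genes of GRCh38.p14 (59716 genes used). Gene strand came from the RefSeq promoter table, for 15843 of 20037 protein-coding genes. Coordinates are 1-based. Shares per list were compared between baits by exact permutation over the 6 orders of labels. The biological replicates are those of the labels, and p-values measure the spread between lists. The labels tie same-numbered replicates of different baits to nothing beyond the number.

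Named were, per list, the 10 highest-scoring regions on a gene, the 5 highest on none, the 10 genes with most members, genes of the 7 lists and regions next to the overlap limit. Others (the 5S array, NPIP, NBPF, RHOU, gene starts, MIR9901, further snoRNAs and the remaining replicate 2 members) were chosen after their values were seen. The members and gene lists were chosen with earlier results of these data known. The merging was tested on simulated data, where 200 of 200 planted single-list regions were found. There, shared peaks always overlapped and sites lay in separate genes, so touching peaks and repeats were not covered. The own-strand share was 94% as planted and 91.6% as found. Python 3.11.15, pandas 2.3.3, numpy 2.4.6, scipy 1.17.1 and matplotlib 3.10.9 were used. Overlap, joining distance, score filters, strand, gene assignment and left-out lists were varied. Some genes that the naming rule covers are not reported here.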

Additional observations from a re-analysis of the deposited data

Results flagged for a closer look

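Peaks on unplaced scaffolds lie outside the 25 chromosomes and entered no comparison. There, 35 merged regions held peaks of HSPA8 replicate 1 only and 53 held peaks of HSPA8 replicate 2 only, while 226 held both. The HSPA1A lists had no peak on a scaffold, so whether these regions are HSPA8's alone could not be compared. In replicate 2 the scaffold regions found in that list alone outnumbered its 38 members on chromosomes.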

How the results depend on the processing

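Of 63 alternative values, 49 were labelled the same, 12 moved and 2 reversed. For the differences between baits that label judged direction alone, so their size could change widely under it. Keeping peaks at or above a list's median score left 157 members in HSPA8 replicate 1 and 0 in replicate 2. Class shares could then not be computed for replicate 2, and the snoRNA count was 0. With equal numbers of top-scoring peaks, 217 and 98 members were left, the protein-coding difference was -8.88, and the Pol III difference was reversed to 0.648. Joining peaks within 500 bp left 25 members in replicate 2, 15 of them on snoRNAs, and a 10 bp overlap gave 1148 and 38. Leaving out a list in turn gave 1148 to 1610 members in replicate 1, 40 to 115 in replicate 2 (66 without HSPA1A replicate 1, 115 without HSPA1A replicate 2), protein-coding differences of -18.5 to 19.05 and Pol III differences of -4.92 to -0.198. The protein-coding difference was reversed, at 19.05, only without HSPA8 replicate 2. Paired by replicate number (replicate block), the differences were -3.05 (exact sign-flip test, p = 1) and -1.54 (exact p = 0.5, the smallest that 2 pairs can give). Pairing cannot change a mean difference, so both values count among the same by construction. Within replicate number 1 the protein-coding difference was 14.6 points, and within number 2 it was -20.7. For Pol III these were -1.15 and -1.92. Whether the numbers pair the lists was not settled. The class shares' deviations from the bait means had r = -0.0603 for same-numbered lists over 8 classes, as a description, while 385 regions held peaks of both replicate 1 lists alone and 2 of both HSPA8 lists alone. Exact p-values over the alternatives were 1 throughout for protein-coding and 0.5 to 1 for Pol III. The own-strand share, with alternatives chosen after seeing the data, was 91.1% without 75 bp regions, 91.7% on exactly 1 gene, 86.2% of 29 with equal numbers and 71.4% of 14 at or above the median score. The causes were not tested. Unknown depth, 2 lists a bait and scores near the list's floor limit these results.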
